A study of Arabidopsis thaliana with 11 samples.

Results

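The genes described here lie in a window of Arabidopsis chromosome 2 around FHE2, a region that modifies the need for ZLL, and around SQN, a gene inside it. The window runs from locus AT2G13500 to AT2G18000. Its members are the probe sets of the ATH1 chip that the platform annotation gives to 1 gene of that range, which are 242 probe sets for 240 genes, of 13513 probe sets with 1 gene on the whole chip. The gene table lists 564 genes in the window, so 42.6% of them could be described here. The annotation gives no gene for 8730 of the 22746 probe sets on the chip, so further genes of the window may have a probe set that is not named, while shares of the chip below are over all 22746. 12 probe sets of the window that several genes share were left out. By its classes, 164 of the measured genes are protein coding, 70 are pseudogenes, 5 are transcribed pseudogenes and 1 has no class. 130 of them lie before SQN in locus order and 109 after it.

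RNA was taken from whole torpedo-stage embryos of wild-type plants, dissected from maturing seed and pooled for each accession. Columbia-0 (Col-0) and Freiburg-1 (Fe-1) had 3 arrays each, which the labels call biological replicates. Ler-0 (Landsberg erecta-0), Bay-0 (Bayreuth-0), Van-0 (Vancouver-0), Nw-0 (Neuweilnau-0) and Ts-1 had 1 array each. The accessions Fe-1, Ler-0, Nw-0 and Bay-0 are labelled dependent on ZLL for keeping shoot stem cells, and Col-0, Ts-1 and Van-0 independent of it. No array carries a zll mutation or a transgene. The labels conflict for a pair of single arrays, as Ler-0 also appears as Ler-1 and Ts-1 as Tossa del Mar-0, and the titles were followed. The values are log2 signals after RMA, a method that subtracts background, equalises the distributions of the arrays and condenses the probes of a set into 1 value. A difference of 1 on this scale is a doubling.

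ZLL, also named AGO10, is an ARGONAUTE protein that binds the small RNAs miR165 and miR166 and so keeps them from AGO1, the main ARGONAUTE of the microRNA pathway. In the embryo this protects the HD-ZIP III transcripts that the shoot stem cells need. SQN, SQUINT, is the plant cyclophilin-40, a co-chaperone that promotes the activity of AGO1. FHE2 is a quantitative trait locus mapped between Ler-0 and Col-0 for stem cell loss in zll mutants, and the question for the window was which of its transcripts differ between accessions.

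Col-0 and Ler-0 differ in sequence where the SQN transcript starts. The study's list of differences between the alleles puts a MULE DNA transposon there in Col-0. The first bases of the Col-0 allele at that junction and the whole Ler-0 allele are shown because they mark where the alleles part, with the bases that both share in capitals and the rest in lower case. A further stretch that the list gives for Col-0 and not for Ler-0 stands last.
Col-0 at the junction: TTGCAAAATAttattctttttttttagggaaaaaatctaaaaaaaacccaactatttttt
Ler-0 at the junction: TTGCAAAATA
Col-0, not in Ler-0: gttttattatttct
The arrays do not read this sequence, and the alleles of the other accessions were not analysed here.

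SQN had the lowest signal in Col-0 and the highest in Ts-1. The brighter of its probe sets read 5.87, 6.08 and 6.06 in Col-0 and 8.63, 8.61 and 8.70 in Fe-1. It read 8.15 in Ler-0, 7.10 in Nw-0, 6.55 in Bay-0, 9.44 in Ts-1 and 9.03 in Van-0. All 3 Col-0 arrays lay below all 8 others, and the ZLL-independent accessions were at both ends of the order. The means spanned 3.43 on the log2 scale, a 10.8-fold range.

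Each step in the order of SQN was compared in a limma fit with 1 mean per accession, in which the spread comes from the replicates of Col-0 and Fe-1 and is assumed for accessions with 1 array. The order was taken from these same means, so every step is positive by construction. The intervals and p-values do not allow for that choice. Bay-0 exceeded Col-0 by 0.545 (95% interval 0.281 to 0.809, adjusted p = 0.0201). The step from Bay-0 to Nw-0 was 0.553 (0.229 to 0.877) and did not pass (adjusted p = 0.0875). Ler-0 exceeded Nw-0 by 1.049 (0.726 to 1.373, adjusted p = 0.00369), and Fe-1 exceeded Ler-0 by 0.498 (0.234 to 0.762, adjusted p = 0.0246). The steps from Fe-1 to Van-0, 0.382 (0.118 to 0.646, adjusted p = 0.086), and from Van-0 to Ts-1, 0.404 (0.081 to 0.728, adjusted p = 0.192), did not pass. Adjusted p-values are from limma with the Benjamini-Hochberg method over 22746 probe sets.

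The second probe set of SQN lay between 3.60 and 3.85 on all 11 arrays. That is below the lower quartile of every array, which lay between 4.92 and 5.04, and no accession difference was called for it. SQN stands for the brighter probe set in what follows.

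**Figure D1:**
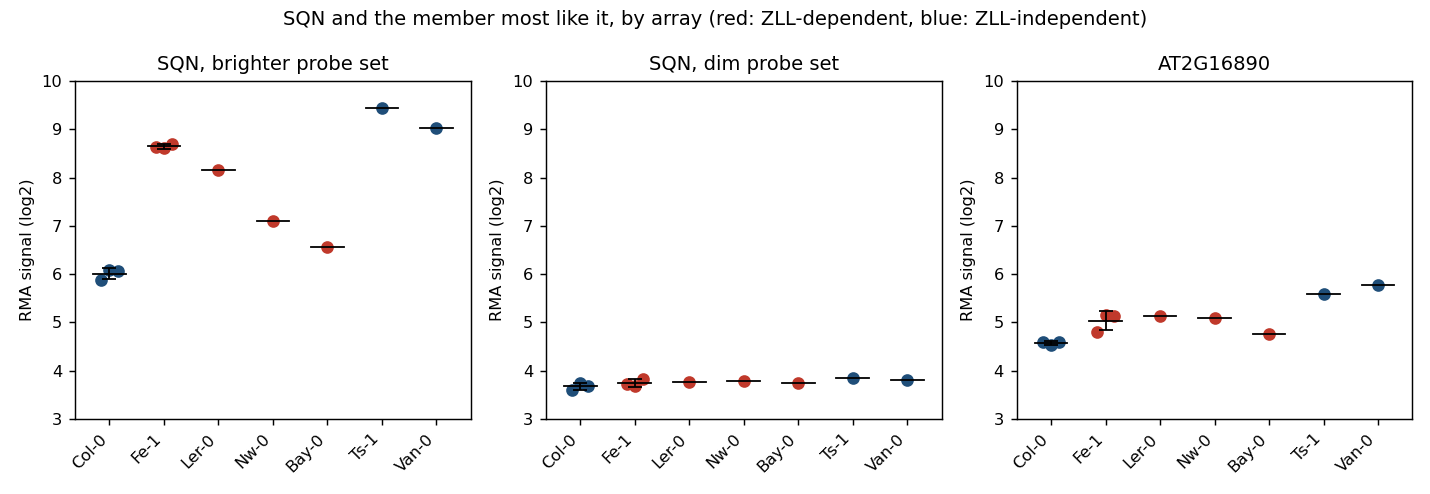
RMA signal (log2) by accession for both probe sets of SQN and for AT2G16890; points are arrays, lines are means, bars are the SD over 3 arrays for Col-0 and for Fe-1, red is ZLL-dependent and blue ZLL-independent. The brighter SQN probe set, left, spans 6.0 in Col-0 to 9.44 in Ts-1, the dim one, middle, stays between 3.60 and 3.85, and AT2G16890 goes from 4.57 in Col-0 to 5.78 in Van-0.

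Many of the described members were dim. 109 of the 242 members, 45%, had a signal under the lower quartile on all 11 arrays, against 20% of all probe sets. The members cover 42.6% of the window's genes, those that the annotation names, while the 20% includes the 8730 probe sets with no gene. Whether the rest of the window is as dim was not tested. Among the pseudogenes 56 of 75 did so, and among the coding members 53 of 166. Only 16 members, 6.6%, lay above the upper quartile of every array (20% of all probe sets). The median member signal over accessions was 4.94, and that of all probe sets was 7.63. A signal under the lower quartile, on all arrays or on some, is near the chip's floor, and the size of a fold taken against it depends on that floor.

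More of the members that varied between accessions lay before SQN than after it. A moderated F test over the 6 contrasts with Col-0 called 22 members at an adjusted p under 0.05 and a 3-fold range of means, 9.09% of the members against 5.99% of all probe sets. 15 of these 22 were among the 130 probe sets before SQN and 6 among the 110 after it, the remaining one being SQN, and this imbalance was not tested. Pseudogenes made up 55 of the members before and 20 of those after SQN, and dim members 46.2% and 43.6%. Without a fold limit the F test called 56 members, 23.1%, which is below the 31.0% of all probe sets. The median range of the means was 0.38 in the window and 0.48 on the chip.

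**Figure D2:**
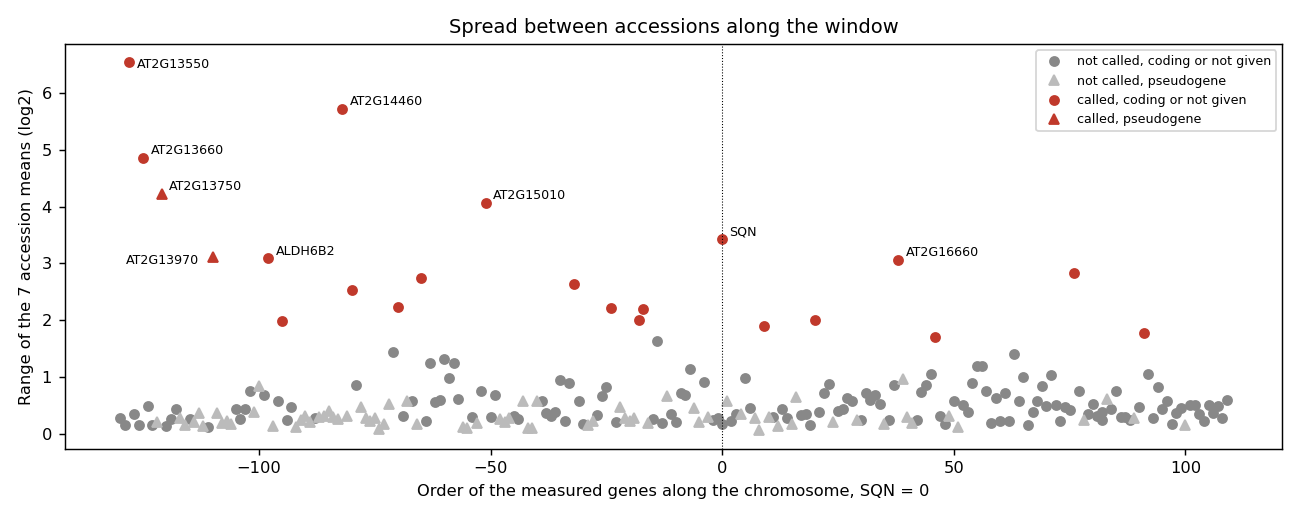
Range of the 7 accession means (log2) of each member, in the order of the measured genes along the chromosome with SQN at 0; red marks the 22 called members and triangles are pseudogenes. The largest range, 6.54 for AT2G13550, is near the start of the window, and SQN stands at 3.43 among 20 neighbouring probe sets that do not exceed 1.90.

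AT2G13550, a coding gene with no name in the gene table, showed the widest range. Its signal was 11.75, 11.71 and 11.73 in Col-0, 10.33, 10.22 and 10.72 in Fe-1, 11.15 in Ler-0 and 10.58 in Van-0. In Nw-0, Bay-0 and Ts-1 it was 5.64, 5.44 and 5.19. Those 3 arrays lay apart from the other 8, with a gap of 4.78 between accession means, and Nw-0 and Bay-0 are ZLL-dependent while Ts-1 is not. Against Col-0 the signal was 92.8-fold lower in Ts-1 (log2 difference -6.54, SE 0.18, adjusted p = 2.01e-06), 78.4-fold lower in Bay-0 and 67.9-fold lower in Nw-0.

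AT2G13660, close by and coding, was low in another set of accessions. It read 8.03, 8.34 and 8.09 in Col-0, 7.24, 7.35 and 7.17 in Fe-1, 9.09 in Nw-0 and 9.15 in Van-0. The Ler-0 array was at 4.28, Ts-1 at 4.54 and Bay-0 at 5.98. Against Col-0 this was 14.6-fold lower in Ler-0 (adjusted p = 5.39e-06), 12.2-fold in Ts-1 (9.89e-06) and 4.51-fold in Bay-0 (0.000132). PIP, proline iminopeptidase, an enzyme that removes proline from the start of a peptide, was low in Ler-0 and Ts-1 too. PIP read 9.68 in Ler-0 and 10.03 in Ts-1, and between 11.34 and 11.67 on all other arrays. Only Ler-0 passed the 3-fold limit for PIP (3.30-fold, adjusted p = 4.93e-05), with Ts-1 at 2.59-fold (adjusted p = 0.000226).

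A few members stood apart in 1 accession. AT2G14460 read 4.53 in Van-0, while its other 10 arrays lay between 8.55 and 10.25. That is 21.7-fold below Col-0 (log2 difference -4.44, SE 0.30, adjusted p = 0.000179). ALDH6B2, an aldehyde dehydrogenase of valine breakdown in mitochondria, was low in Fe-1 at 8.98, 8.87 and 8.52. Its other arrays lay between 10.78, in Bay-0, and 11.87, in Ler-0. The Fe-1 signal of ALDH6B2 was 7.95-fold below Col-0 (log2 difference -2.99, SE 0.12, adjusted p = 6.16e-06). Here the 3 Fe-1 arrays give the spread of the low group itself, which the single arrays of the other cases do not.

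In other members Ler-0 had the highest signal. The pseudogene AT2G13750 was above the lower quartile in Ler-0 only. AT2G13750 read 8.11 in Ler-0 and between 3.8 and 4.12 on the other 10 arrays, where it lay under the lower quartile. The log2 difference from Col-0 was 4.22 (SE 0.12, adjusted p = 1.65e-06), set against a Col-0 signal near the floor. AT2G15010, placed in the defence list, read 8.46 in Ler-0 and 6.45 in Ts-1 against 4.40 to 5.80 elsewhere, and was 10.8-fold higher in Ler-0 than in Col-0 (adjusted p = 0.000174). Ts-1 also exceeded Col-0 for AT2G15010, by 2.68-fold (adjusted p = 0.0162). For UGT73B4, a glycosyltransferase that attaches sugar to small molecules, Ler-0 was also highest, at 7.91 against 5.70 to 6.67. AT2G15960 had its highest array in Ler-0 at 6.92, the others lying between 4.89 and 6.07. Both differed from Col-0 by less than 3-fold, 2.53-fold for UGT73B4 (adjusted p = 0.000731) and 1.95-fold for AT2G15960 (adjusted p = 0.004).

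**Figure D3:**
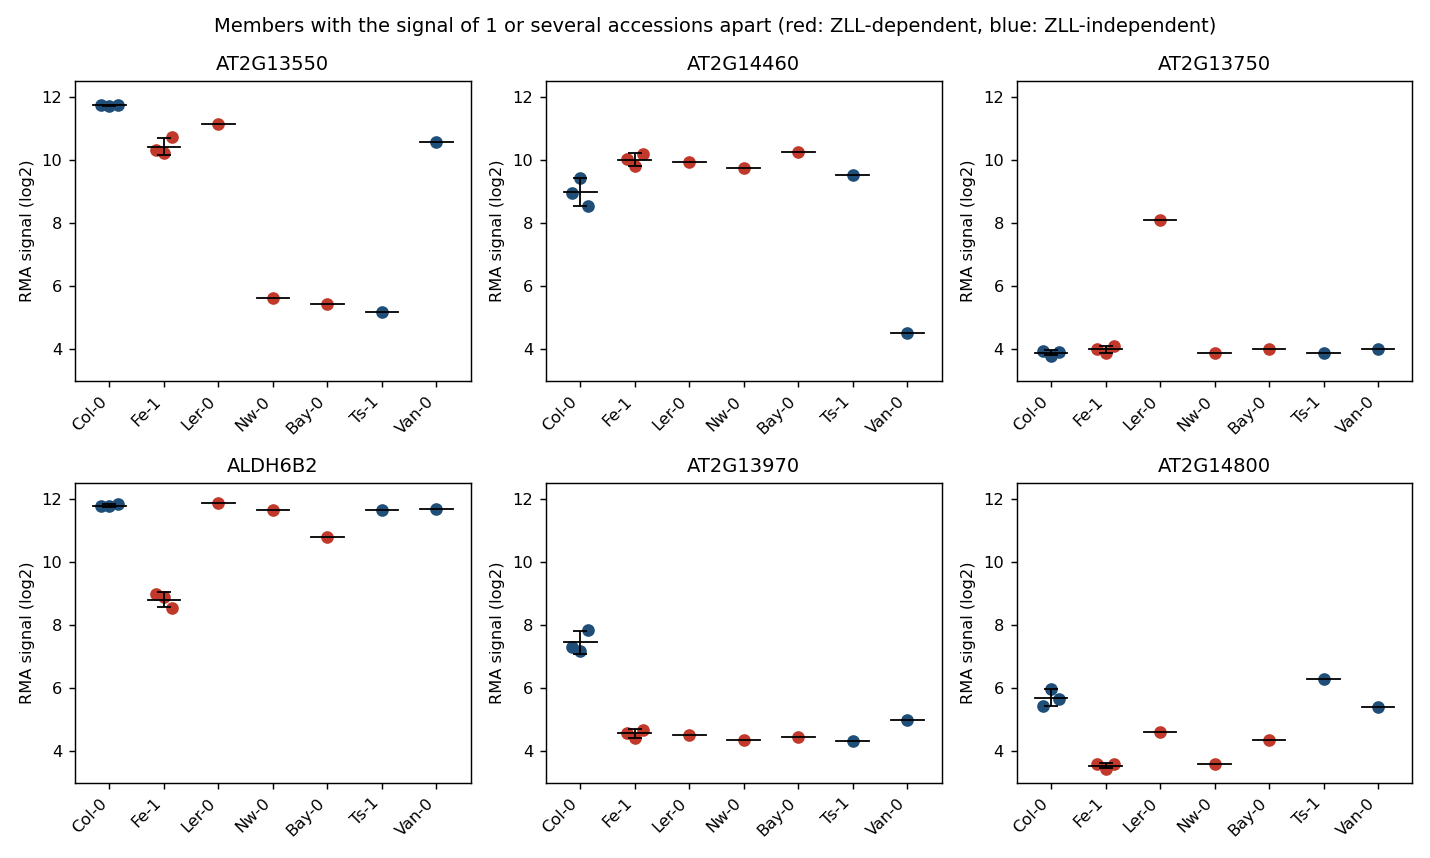
RMA signal (log2) by accession of AT2G13550, AT2G14460, AT2G13750, ALDH6B2, AT2G13970 and AT2G14800; points are arrays, lines are means, bars are the SD over 3 arrays for Col-0 and for Fe-1, red is ZLL-dependent and blue ZLL-independent. Nw-0, Bay-0 and Ts-1 are low for AT2G13550, Van-0 for AT2G14460 and Fe-1 for ALDH6B2, while Ler-0 is high for AT2G13750 and Col-0 for AT2G13970.

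AT2G13970 was high in Col-0 alone. It is a transposable element gene by the study's annotation and a pseudogene in the gene table. Col-0 read 7.31, 7.17 and 7.85, and the other 8 arrays lay between 4.33 and 4.99. All 6 accessions were below Col-0 past the 3-fold limit, from 5.49-fold in Van-0 (adjusted p = 0.00098) to 8.65-fold in Ts-1 (adjusted p = 0.000334). AT2G13550 also had all 3 Col-0 arrays above all others, by 3.07 on average. That average rests mostly on Nw-0, Bay-0 and Ts-1, as the log2 difference of Ler-0 from Col-0 was -0.58. These were the 2 members with all Col-0 arrays above all others and a difference of means of at least 1, a rule that 0.668% of all probe sets met. By the same rule Col-0 lay below the others in 2 members, SQN and AT2G14490, against 0.497% on the chip.

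The chip's probes were designed on the Col-0 sequence. A low signal in another accession can come from less RNA or from bases that no longer match the probe, or from a gene that is missing there, and these cannot be told apart here. The called members that follow go in both directions.

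AT2G14490, which has no class in the gene table, was 4.88 to 5.0 in Col-0, 5.38 to 5.56 in Fe-1 and 5.64 in Van-0. The other accessions were higher, at 7.49 in Ler-0, 7.29 in Nw-0, 7.44 in Bay-0 and 6.92 in Ts-1. Those 4 exceeded Col-0 by 3.90-fold in Ts-1 (adjusted p = 6.08e-05) to 5.78-fold in Ler-0 (adjusted p = 1.27e-05). SQN and AT2G14490 share the low Col-0 value and little else, as r between their accession means was 0.02.

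AT2G16660 was low in Ler-0 at 5.90, Bay-0 at 5.43 and Van-0 at 5.59, and lay between 7.77 and 8.54 on the other 8 arrays. The falls from Col-0 were 4.65-fold (adjusted p = 0.00168), 6.42-fold (adjusted p = 0.000982) and 5.74-fold (adjusted p = 0.00122). AT2G17280 was lowest in Van-0 at 6.93 and Bay-0 at 7.62 and highest in Fe-1, at 9.63 to 9.89, and Ts-1, at 9.60. Van-0 alone passed the 3-fold limit for AT2G17280 (3.72-fold lower, adjusted p = 0.000167). AT2G14690, listed with the synonym ATXYN4, was 6.21 in Bay-0 and 7.17 to 8.60 elsewhere, 4.08-fold below Col-0 (adjusted p = 0.00852). Without Col-0 replicate 1 the F test of AT2G14690 did not pass (adjusted p = 0.0631).

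AT2G15580 and AT2G16790 were the called members whose means were highest in Fe-1 and Ler-0. AT2G15580 read 6.37, 6.42 and 5.92 in Fe-1 and 6.71 in Ler-0 against 4.51 to 5.20 on the other 7 arrays. AT2G16790 read 5.90, 5.43 and 5.63 in Fe-1 and 6.18 in Ler-0 against 4.49 to 5.23. Both passed against Col-0 with Fe-1 and Ler-0 together (adjusted p = 0.00522 and 0.0477) and neither reached 3-fold (2.34-fold and 1.59-fold). Of the remaining called members, AT2G16230 was lowest in Nw-0 at 4.34, and AT2G15560 was highest there at 7.66. AT2G17660 lay between 9.64, in Nw-0, and 11.42, in Ts-1.

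**Figure D4:**
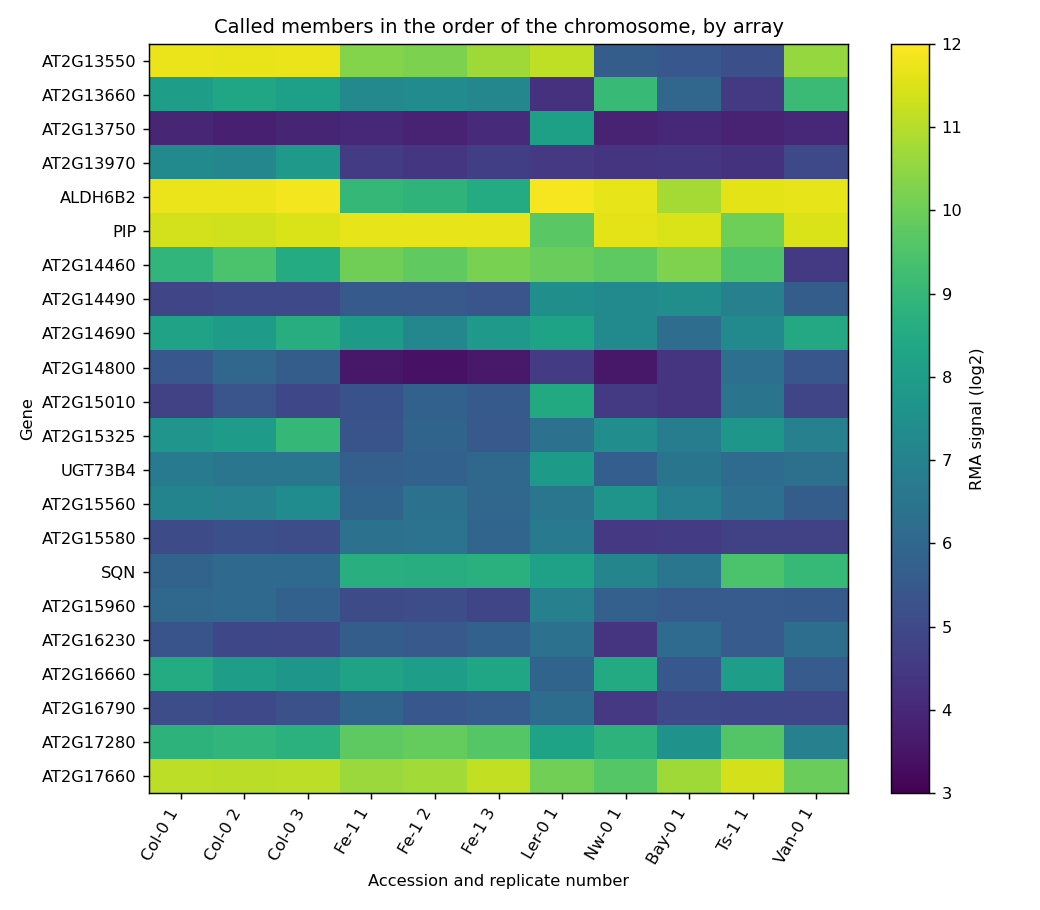
RMA signal (log2, colour) of the 22 members called for an accession difference, 1 row a gene in the order of the chromosome and 1 column an array. The set of low accessions changes from row to row: Nw-0, Bay-0 and Ts-1 are below 5.7 for AT2G13550, Van-0 alone is at 4.53 for AT2G14460, and Col-0, Nw-0 and Bay-0 are the lowest for SQN.

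When the accession means of each called member were put in order and divided at the largest gap, the 22 members gave 16 different sets of low accessions. 4 members had Ler-0 alone above the gap. 2 had Fe-1 alone below it, 2 had Ler-0 and Ts-1 below it, and 2 had Fe-1 and Ler-0 above it. SQN was the only called member with Col-0, Nw-0 and Bay-0 below the gap, and its gap was 1.05. AT2G14800 was the only one of the 22 with the ZLL-dependent accessions on one side and the ZLL-independent ones on the other. The shares of all probe sets with these divisions were not computed, so nothing about the window or these genes is read from the counts.

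Against Col-0, each accession called between 4 and 9 members at 3-fold. Fe-1 called 5 (2.07% of the members, 1.4% of all probe sets), of which SQN was higher and AT2G13970, ALDH6B2, AT2G14800 and AT2G15325 were lower. Ler-0 called 9 (3.72% and 1.63%), 4 higher and 5 lower. Nw-0 called 4 (1.65% and 0.936%), with AT2G14490 higher and AT2G13550, AT2G13970 and AT2G14800 lower. Bay-0 called 6 (2.48% and 1.35%), 1 higher and 5 lower. Ts-1 called 5 (2.07% and 1.08%), with SQN and AT2G14490 higher, and Van-0 called 5 (2.07% and 1.2%), with SQN higher. On the whole chip the higher and lower calls were 0.475% and 0.928% in Fe-1, 0.95% and 0.681% in Ler-0, 0.202% and 0.734% in Nw-0, 0.448% and 0.906% in Bay-0, 0.303% and 0.778% in Ts-1 and 0.435% and 0.761% in Van-0. The 6 contrasts share the Col-0 arrays. 15 members passed in at least 1 of them, which 4.1% of all probe sets did. 7 passed in 1 accession (2.4% of all probe sets), 2 in 2 (0.774%) and 6 in 3 or more (0.928%).

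Without a fold limit the window did not stand above the chip in any accession. The members called were 54 in Fe-1 (22.3% against 29.3% of all probe sets), 33 in Ler-0 (13.6% against 13.8%) and 16 in Nw-0 (6.61% against 8.39%). They were 22 in Bay-0 (9.09% against 14.2%), 13 in Ts-1 (5.37% against 8.18%) and 30 in Van-0 (12.4% against 13.5%).

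With Fe-1 and Ler-0 taken as 1 group of 4 arrays against the 3 of Col-0, 4 members passed at 3-fold, 1.65% of the window against 0.703% of the chip, 1 higher (0.242% of the chip) and 3 lower (0.462%). SQN was 5.74-fold higher (log2 difference 2.52, SE 0.14, adjusted p = 9.53e-05). AT2G13970 was 7.43-fold lower (-2.89, SE 0.16, adjusted p = 9.12e-05). AT2G15325, a lipid transfer protein gene, was 5.44-fold lower (-2.44, SE 0.35, adjusted p = 0.00586), and AT2G14800, of unknown function, 3.67-fold lower (-1.88, SE 0.29, adjusted p = 0.00759). Without a fold limit 21 members passed, 8.68% against 12.3% of all probe sets. Since the Fe-1 arrays are 1 accession and not independent of each other within this group, these p-values are too small.

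The arrays of these genes differed in how far the groups were apart. AT2G15325 read 7.71, 7.95 and 9.0 in Col-0, 5.35, 5.90 and 5.51 in Fe-1 and 6.34 in Ler-0, while Nw-0, Bay-0, Ts-1 and Van-0 lay between 6.78 and 7.78. AT2G14800 read 5.44, 5.97 and 5.65 in Col-0, 3.58, 3.44 and 3.61 in Fe-1, 4.61 in Ler-0, 3.58 in Nw-0 and 4.34 in Bay-0. It read 6.28 in Ts-1 and 5.41 in Van-0. The 4 genes were picked by their difference in this comparison, so nothing further is read from how far Fe-1 and Ler-0 lay from Col-0. Among them, only for AT2G14800 did Nw-0 and Bay-0 join Fe-1 and Ler-0 while Ts-1 and Van-0 stayed with Col-0. The call of AT2G15325 in Ler-0 alone (3.67-fold lower, adjusted p = 0.0323) was lost without Fe-1 replicate 3 (adjusted p = 0.0585), and without Col-0 replicate 3 its log2 difference, -1.488, was under the 3-fold limit.

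When the arrays were grouped by ZLL dependency, AT2G14800 was the only member past 3-fold, 0.413% of the members against 0.0528% of all probe sets, or 0.044% for lower calls and 0.00879% for higher ones. Its 6 dependent arrays lay between 3.44 and 4.61 and the 5 independent ones between 5.41 and 6.28. All the dependent arrays were thus under the lower quartile, near the floor, on which the size of the fold depends. The difference was 3.71-fold (log2 difference -1.89, SE 0.24, adjusted p = 0.00848). With 1 mean per accession, 4 against 3, it was -1.775 and did not pass (adjusted p = 0.662), and with accession as a random block it was -1.803 (adjusted p = 0.0654). SQN differed by 0.66 (SE 0.74, adjusted p = 0.688) between the same groups, from 0.307 without Col-0 replicate 1 to 1.198 without Ts-1, and its direction turned with 1 mean per accession (-0.544). Without a fold limit the only member called was again AT2G14800, with 0.448% of all probe sets called.

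AT2G16890 was the only other member that met the rule for the accession pattern of SQN. The rule asked for a Pearson r of at least 0.8 with SQN over the 7 accession means and a range of at least 1. Of the 241 other members 1 met it, AT2G16890, and 0.299% of all probe sets did. The likeness is a description over 7 means that share the same arrays. No member met the opposite rule, r of -0.8 or below, which 0.198% of all probe sets met. Both counts are near what these shares of the chip would give, so nothing about the window is read from them.

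AT2G16890 is a coding gene with no name in the gene table and lies 55 measured genes after SQN. It read 4.6, 4.52 and 4.59 in Col-0, 4.80, 5.16 and 5.13 in Fe-1, 5.13 in Ler-0, 5.09 in Nw-0, 4.75 in Bay-0, 5.59 in Ts-1 and 5.78 in Van-0. Col-0 was again lowest, followed by Bay-0, and Ts-1 and Van-0 were again the highest, in exchanged places. r with SQN was 0.884 and Spearman's rho 0.857, and with each accession left out in turn r lay between 0.82, without Col-0, and 0.953. Its range of 1.20 compares with 3.43 for SQN, and the largest difference from Col-0 was 2.30-fold, in Van-0 (adjusted p = 0.00284). Its levels lay near the lower quartile of the arrays.

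Below the limits, 9 members had r of at least 0.8 at any range, 3.7% against 2.5% of all probe sets. Apart from AT2G16890 they spanned 0.44 or less. The highest r, 0.919, belonged to AT2G15110, whose means covered only 0.31, and the second SQN probe set had r = 0.808 over a range of 0.18. The 71 members with Col-0 as the lowest accession made up 29.5%, and on the chip the share was 23.5%. Of the members with a range of at least 1, AT2G15560 came nearest to the opposite of SQN (r = -0.796), with 7.06, 7.0 and 7.38 in Col-0 and 5.66 in Van-0. AT2G14900 met the rule with Spearman's rho in place of r (rho 0.821, r = 0.715). Its arrays of one accession were far apart, at 5.93, 8.34 and 6.87 in Fe-1, and no accession difference was called (adjusted p = 0.933).

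**Figure D5:**
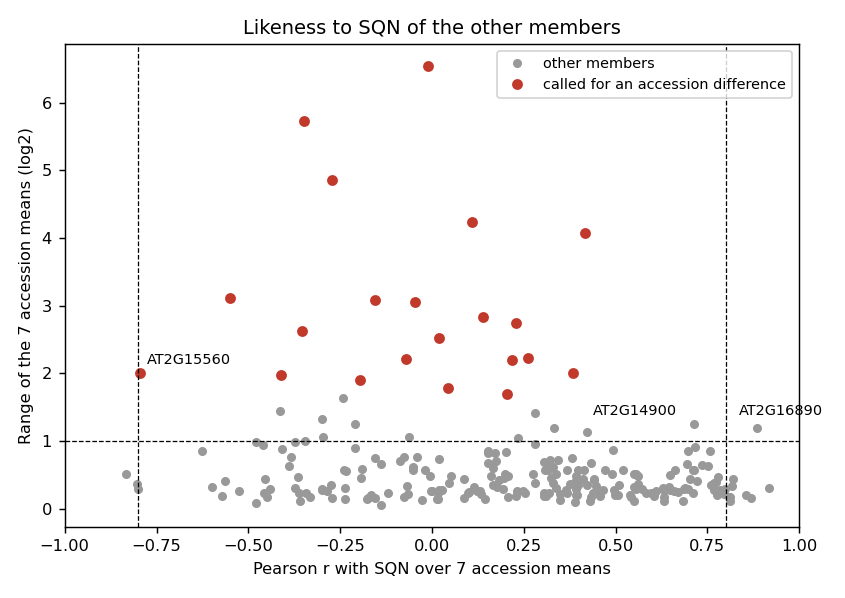
Pearson r with SQN over the 7 accession means (horizontal) and range of those means in log2 (vertical) for the 241 other members, red where an accession difference was called; dashed lines mark r of 0.8 and -0.8 and a range of 1. AT2G16890 alone lies in the upper right field (r = 0.884, range 1.20), and AT2G15560 stands at the edge of the upper left one.

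None of the genes beside SQN met the rule for its pattern. As 0.299% of all probe sets met it, nothing is read from its absence in 20 probe sets. Of these 20, from the 10 measured genes on each side, 10 stayed under the lower quartile on all arrays. Their r with SQN ran from -0.80 to 0.72 with a median of 0.18, against 0.12 over all other probe sets. 5 of the 20 passed the F test at any fold, AT2G15690, AT2G15695, AT2G15740, AT2G15900 and AT2G15960, and of these only AT2G15960 had a 3-fold range. On the chip 31.0% passed at any fold and 5.99% with a 3-fold range, so the neighbours did not stand above it. AT2G15740 had the r of 0.72. Its signal was 4.33 in Ts-1 and 4.07 in Van-0 against 3.39 to 3.65 on all other arrays, all of it below the lower quartile. The next measured genes, AT2G15780 before and AT2G15810 after SQN, had ranges of 0.27 and 0.58. AT2G15810, a pseudogene that belongs to the transposon at the SQN start, read 5.22, 5.09 and 5.25 in Col-0 and 5.25 to 5.77 elsewhere, with no accession difference called (adjusted p = 0.0973). The study reports that insertion as absent from Ler-0, where the signal was no lower than in Col-0. The signal is therefore not read as expression of this copy, and what the probe set detects was not tested.

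The gene lists of the window had few measured members, since the annotation used here names few of their genes. For the counts below, 31.0% of all probe sets passed the F test at any fold and 5.99% with a 3-fold range, and nothing is read from the lists with so few members. Of 9 RNA silencing genes 2 were measured. NERD, a protein that links small RNAs to DNA methylation, lay between 8.24 and 9.18 and was not called, so SQN was the only one past the F test. DRD1, a remodeller of RNA-directed DNA methylation that the study placed near FHE2, was not analysed here, nor were the 10 meristem and embryo genes with WUS, the stem cell organiser, among them. SQN was the only cyclophilin measured of 2.

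Of 11 defence genes 3 were measured, and 1, AT2G15010, passed the F test. Of 8 lipid transfer and wax genes 2 were measured. AT2G15325 passed and was lower in Fe-1 and Ler-0 than in Col-0, and CYP51G2, of the sterol demethylase family, lay between 5.08 and 5.45. Of 13 cell wall genes 1 was measured, AT2G15880, at 8.16 to 8.92 in Col-0 and 7.46 to 7.79 in Fe-1 and Ler-0. AT2G15880 passed in that comparison at 1.82-fold (adjusted p = 0.0233) and not in the F test (adjusted p = 0.054). Of 14 transcription factor genes 4 were measured, and AMS, a regulator of anther development, was the one past the F test (adjusted p = 0.0266). AMS read 6.66, 6.28 and 6.37 in Col-0 and 5.57 to 5.90 in Fe-1 and Ler-0, where it was 1.62-fold lower (adjusted p = 0.0111). No gene of the lists for replication or for transport was measured. Among the 75 pseudogenes 3 passed the F test, AT2G13750 and AT2G13970 with a 3-fold range, and the median range of the pseudogenes was 0.26 against 0.48 on the chip. Their share past the F test was below that of all probe sets.

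Array medians lay between 7.57 and 7.71, and across probe sets arrays of one accession correlated at 0.996 to 0.997 and those of different accessions at 0.978 to 0.988. Of the markers fixed for the sample, none of 7 for the embryo was named by the annotation, so the label was not checked against them. 2 of 7 seed coat genes were measured. BAN, which makes seed coat tannin precursors, read 4.67 to 5.95 in Col-0, 5.07, 8.77 and 7.40 in Fe-1, 7.61 in Van-0 and 4.72 to 5.26 in the other accessions. DFR, an enzyme of the same pathway, read 5.50 to 6.16 in Col-0, 5.84, 9.51 and 7.53 in Fe-1, 7.97 in Ler-0, 7.43 in Van-0 and 5.28 to 6.33 in the others. It was high in Ler-0, where BAN was low and the most members were called, and the part of the seed coat in those calls was not tested. The summed log2 signal of both seed coat genes ran from 10.22 to 12.11 in Col-0 and reached 18.28 in the others. SQN differed by under 0.1 among the Fe-1 arrays over which BAN differed most, and on the Fe-1 array with low BAN, ALDH6B2 was at 8.98 and AT2G13970 at 4.59. The part of the seed coat in the differences of these members was not tested. Ler-0 and Van-0 have 1 array each, so arrays within them cannot be compared in this way. For AT2G14900 and AT2G16890 both Fe-1 arrays with high BAN had more signal than the other, and the part of the seed coat in them was not tested. AGL62, 1 of 5 endosperm markers, lay between 3.53 and 4.0 on all arrays.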

How the data were processed

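The authors hybridised embryo RNA to ATH1 chips, processed the arrays with RMA and deposited log2 values per probe set, which were used here without further normalisation. Its version is not given in the sources used here, nor is a chip definition. RMA shares information between arrays, which can shrink a difference of 1 array. After 64 chip controls were left out, 22746 probe sets were tested. Of the 242 members, 241 have an Entrez ID found in the TAIR10.1 gene table, 1 was placed by locus, and 20 may cross-hybridise. The table was used for names, classes and gene order only, because the files name no genome build.

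Groups were compared with limma 3.58.1 (lmFit, eBayes; R 4.3.3) over all 11 arrays, or those of Fe-1, Ler-0 and Col-0. A probe set was called when it differed 3-fold or more and its Benjamini-Hochberg adjusted p was under 0.05, and a second rule had no fold limit. The methods do not name the test. In data simulated with independent noise 98% of 4-fold changes were recovered when Fe-1/Ler-0 was compared with Col-0, and 94% for Bay-0 alone. The simulated accessions differed in nothing else, unlike the real ones, so these shares can be too high for the arrays here. Precision is limited by the number of arrays.

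The members and lists were chosen with earlier results of these data known. Named were SQN, every member called at 3-fold in a comparison of groups or of an accession with Col-0, members like or opposite to SQN, the genes the study lists near FHE2, genes beside SQN past the F test and, per list, up to 4 members with the smallest adjusted p. The other members called by the F test, and AT2G14900, AT2G15110, AT2G15780 and AT2G15810, were named after their values were seen. The gene table has no word for transposable elements, so pseudogenes were counted in their place. Alternatives were a log2 difference of 1.5, no fold limit, median centring, repeated quantile normalisation, leaving out the dimmest 25% or cross-hybridising probe sets, an intensity trend with a robust fit, a replicate block, 1 mean per accession, a random block by accession, other limits of the SQN rule, and leaving out each array or accession. Figures were drawn with matplotlib 3.10.9.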

Additional observations from a re-analysis of the deposited data

Results flagged for a closer look

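AT2G14800 in the Ler-0 array, at 4.61, lay apart from the 3 Fe-1 arrays of the same group, the nearest of which was at 3.61. The gap was 0.856 of the range of the 4 arrays, above Dixon's limit of 0.829. The Ler-0 array is the only one of its accession in that group. 8 groups of values were examined, and chance flags about 1 in 20 where all arrays of a group are alike. This group mixes Fe-1 and Ler-0, so that rate does not describe its flag.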

How the results depend on the processing

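Without the fold limit the counts of called members grew to 21 for Fe-1/Ler-0, to 54, 33, 16, 22, 13 and 30 for Fe-1, Ler-0, Nw-0, Bay-0, Ts-1 and Van-0 against Col-0, and to 56 for any accession difference. The single call of ZLL-dependent against ZLL-independent, AT2G14800, became 0 with 1 mean per accession and 0 with accession as a random block. The count was also 0 without the dimmest 25% of probe sets, but AT2G14800 is itself among those left out and was not tested there. Without Ts-1 AT2G14800 was joined by AT2G13970 (-2.332, adjusted p = 0.0492 by limma) and without Van-0 by AT2G15325 (-1.893, adjusted p = 0.0369). The count thus lay between 1 and 2 over the arrays left out. With 1 mean per accession SQN turned to -0.544 and with the random block to -0.225, while AT2G14800 was -1.775 and -1.803 and no longer passed. The cause was not tested. SQN in that comparison lay between 0.307 and 1.198 over the arrays left out, moving past 1.5 times from 0.663 without any one of the Col-0 arrays, Ts-1 or Van-0. Leaving out each array gave 4 to 5 members for Fe-1/Ler-0 (ALDH6B2 was added without Ler-0, -2.991), 8 to 10 for Ler-0, 5 to 6 for Ts-1, 4 for Nw-0, 5 for Fe-1 and for Van-0, 6 for Bay-0 and 18 to 23 for any accession difference. Members like SQN numbered 2 at r of 0.7, 0 at r of 0.9 and 2 with Spearman's rho, where AT2G14900 joined AT2G16890. Members opposite to SQN numbered 1 at r of 0.7, 1 over the single arrays, 1 without Nw-0, 1 without Bay-0 and 2 without Ts-1, AT2G15560 and in the last case AT2G15630. With a 1.5-fold limit Col-0 lay below all others in 4 members. Of the other alternatives, 174 counts stayed within 1.5 times the main one and 84 values of single genes kept their direction and call.

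Replicate numbers of Col-0 and Fe-1 were not taken as pairs in the main fits. Same-numbered deviations correlated at 0.035 to 0.231, and those of different numbers at -0.151 to 0.037. 5 of 6 arrays correlated best with their own number, and whether the numbers mark a shared batch was not tested. The replicate block left 4 members for Fe-1/Ler-0 and changed 3 calls, taking AT2G15325 in Ler-0 below the threshold (-1.504, adjusted p = 0.093 by limma) and adding AT2G15010 in Ts-1 and AT2G15630 in the F test. 5 accessions have 1 array, and dim members limit what can be seen.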
